A study of Homo sapiens with 32 samples.

Results

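NUFIP2, RUFY1, CTSL, BCLAF1, NIPBL, TNFRSF11B and PIN4 are 7 protein-coding genes that, in 786-O, RPTEC or both, carry m6A regions called in all libraries lacking SETD2 and in none with SETD2. They were selected on the peak calls themselves. NUFIP2, RUFY1 and CTSL hold the 3 highest-scoring such regions within protein-coding genes of 786-O, BCLAF1, TNFRSF11B and NIPBL hold the 3 highest-scoring of RPTEC, and PIN4 holds a region with this pattern in both cell lines. They are 7 of 13420 protein-coding genes with a called peak in any library, and their gene bodies hold 413 peaks of 474004.

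m6A was profiled by MeRIP-seq, in which fragmented RNA is pulled down with an anti-m6A antibody (IP) and compared with the unselected RNA (Input), in 786-O, a clear cell renal cell carcinoma (ccRCC) line, and in RPTEC, hTERT-immortalized renal proximal tubule epithelial cells. Each cell line was studied as its untreated WT parent, the CRISPR/Cas9 clones SETD2KO-1 and SETD2KO-2, and SETD2KO-1R, a clonal derivative of SETD2KO-1 that re-expresses full-length tagged SETD2. Every line had 2 IP libraries, so that each cell line has 4 SETD2KO libraries and 4 from lines with SETD2, WT and SETD2KO-1R, here called SETD2-expressing. There were 16 IP libraries in all. SETD2 status thus rests on few clones, the 2 libraries of a line are not separate clones, and p-values measure the spread between libraries.

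SETD2 places the H3K36me3 mark on the bodies of transcribed genes. The METTL3 and METTL14 complex adds m6A to RNA as it is made, and METTL14 can bind H3K36me3. m6A marks messenger RNA mostly in long exons and near stop codons, where it affects splicing, translation and decay.

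Each library came as a list of called peaks with a position, a summit and a whole-number score of unstated scale. The lists held 25710 to 39670 peaks in 786-O and 19249 to 31207 in RPTEC. No read counts come with them. The depth behind a peak is therefore unknown, and a place without a call may still carry signal below the caller's threshold. A peak also needs its transcript, so more methylation and more RNA cannot be told apart. Peaks carry no strand. The SETD2 gene body itself held 4 to 6 peaks per SETD2KO library and 7 to 11 per SETD2-expressing library in RPTEC. In 786-O it held 4, 5 and 5 in 3 SETD2KO libraries, 10 in SETD2KO-1 replicate 2 and 7 to 10 in the SETD2-expressing libraries, so the groups overlapped by that 1 library. A number of peaks does not check the knockouts, since CRISPR indels need not remove the transcript. Peaks lay in the renal lineage markers PAX8, PAX2 and LHX1 in all 8 libraries of both cell lines. Of the proximal tubule markers LRP2, CUBN, AQP1 and SLC34A1, none had a peak in RPTEC, and CUBN alone had a peak in 1 library of 786-O. Of the epithelial genes, KRT8 and KRT18 had peaks in all 16 libraries, KRT19 in 2 libraries of 786-O and 8 of RPTEC, EPCAM in 2 of RPTEC alone and CDH1 in none. Of the ccRCC markers, EPAS1 had peaks in all 16, VIM in 8 of 786-O and 6 of RPTEC and CA9 in none. Of the markers of other cell types PTPRC, PECAM1 and ALB had none, whereas MYH11 had peaks in all 16 libraries.

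Within a cell line, overlapping peaks of the 8 libraries were joined into 1 region, and a library was said to call a region if it had a peak in it. A region called in all 4 SETD2KO and in none of the SETD2-expressing libraries is called SETD2KO-only, and a region called in all 8 is called constant. Of 78921 regions in 786-O, 375 were SETD2KO-only (0.475%) and 116 were called in the SETD2-expressing libraries alone (0.147%). Of 68428 regions in RPTEC, 180 were SETD2KO-only (0.263%) and 145 showed the reverse (0.212%). A SETD2KO-only region was held by 184 of 12430 protein-coding genes with a region in 786-O (1.48%) and by 114 of 12185 in RPTEC (0.936%). All 7 genes are in these counts because the rule put them there, so nothing is read from their share.

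The SETD2KO-only regions within protein-coding genes, 185 in 786-O and 115 in RPTEC, were ranked by their mean score percentile over the SETD2KO libraries, where the percentile of a peak is the share of its own list with a score at or below it. In 786-O the mean percentile was 99.0 for NUFIP2, 97.3 for RUFY1 and 96.2 for CTSL, and the next region, in SF3A1, stood just outside at 95.4. In RPTEC it was 98.9 for BCLAF1, 93.4 for TNFRSF11B and 89.2 for NIPBL, with NUPR1 just outside at 88.8. The PIN4 region ranked 41 of 185 in 786-O (53.8) and 11 of 115 in RPTEC (78.4).

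In 786-O, 2 of the 4 SETD2KO-only regions lie across an annotated gene start, those of NUFIP2 and CTSL. The bases upstream of these starts are shown because they are the stretch that the joined calls bring in beyond the annotated gene. For NUFIP2 only the SETD2KO-2 replicate 2 peak reaches its far end, and the others end at 29294251, 29294254 and 29294312. The same stretch of NIPBL is shown as a gene start that all 16 libraries called. The sequences are from RefSeq (GRCh38.p14), 5′ to 3′ on the gene's strand, with GGAC, the core of the usual m6A consensus, in capitals. The stretches are chr17:29294149-29294398 on the minus strand for NUFIP2, chr9:87725939-87726118 on the plus strand for CTSL and chr5:36876519-36876768 on the plus strand for NIPBL.
NUFIP2: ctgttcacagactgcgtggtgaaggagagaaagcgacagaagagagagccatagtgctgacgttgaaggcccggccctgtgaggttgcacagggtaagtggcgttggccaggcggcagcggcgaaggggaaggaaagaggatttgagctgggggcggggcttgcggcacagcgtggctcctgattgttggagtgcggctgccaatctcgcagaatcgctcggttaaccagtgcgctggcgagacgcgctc
CTSL: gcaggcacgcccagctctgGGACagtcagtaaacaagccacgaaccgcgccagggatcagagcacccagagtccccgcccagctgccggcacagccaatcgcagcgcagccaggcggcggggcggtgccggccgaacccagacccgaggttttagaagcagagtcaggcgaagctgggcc
NIPBL: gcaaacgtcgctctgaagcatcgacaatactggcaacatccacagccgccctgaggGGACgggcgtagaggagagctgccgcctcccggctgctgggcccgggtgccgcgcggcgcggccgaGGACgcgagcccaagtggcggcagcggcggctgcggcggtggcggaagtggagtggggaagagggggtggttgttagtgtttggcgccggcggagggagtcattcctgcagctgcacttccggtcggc
The NUFIP2 stretch of 250 bases holds no GGAC and no GTCC, its reverse complement. The CTSL stretch of 180 bases holds 1 of each, and the NIPBL stretch of 250 bases holds 2 GGAC and no GTCC. The study's wider consensus RRACH (R is A or G, H is A, C or T) was not counted. The bases agact near the start of the NUFIP2 stretch match it. The parts of these regions inside the genes were not searched. On the gene's strand GGAC occurs in 59.0% of all 35116 RefSeq upstream windows of 250 bases and in 48.2% of windows of 180 bases, and either strand's motif in 82.0% and 72.3%. The GC content was 61.6% for NUFIP2, 68.3% for CTSL and 70.0% for NIPBL, beside a median of 58.0% over all windows of 250 bases and 59.4% over those of 180 bases. Gene starts lay in 9 of 185 SETD2KO-only regions within protein-coding genes in 786-O (4.86%), in 11.5% of constant regions and in 6.37% of all regions. In RPTEC the shares were 6.96%, 8.69% and 5.52%.

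**Figure D1:**
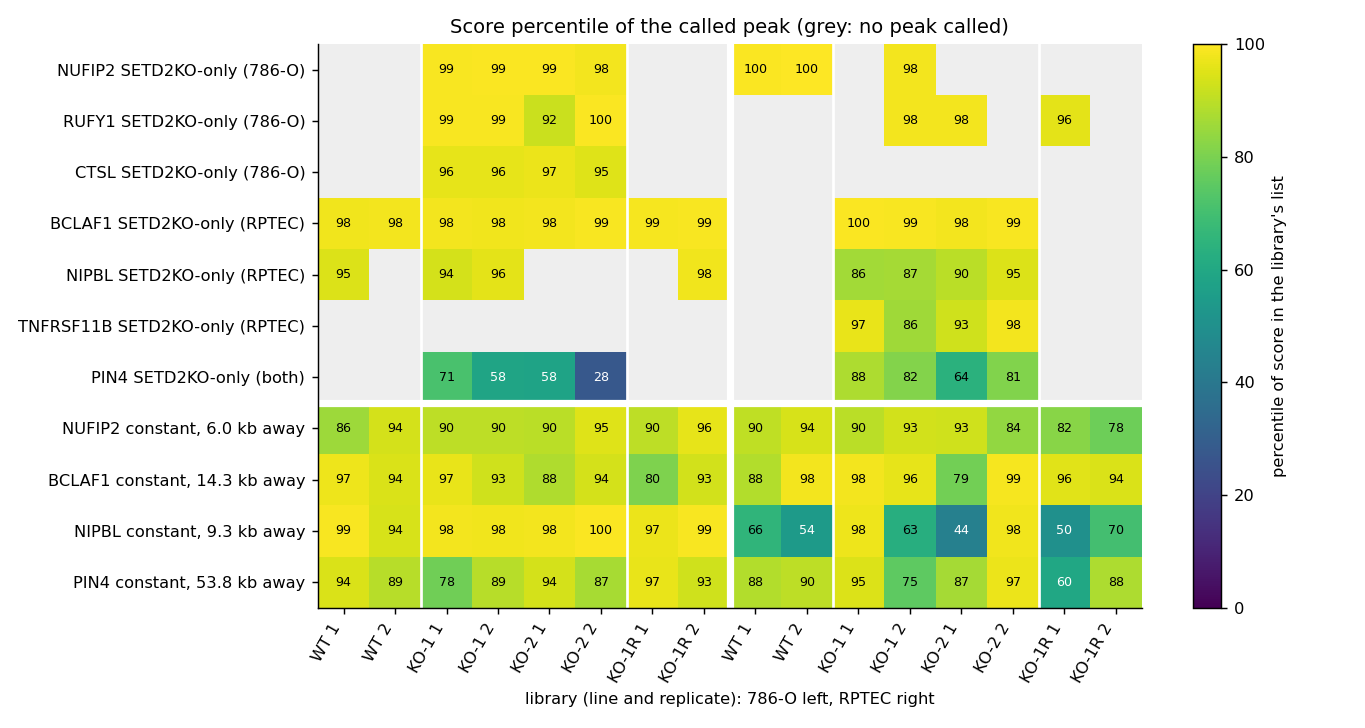
Score percentile of the called peak in each of the 16 libraries (columns, 786-O left and RPTEC right) at the SETD2KO-only regions of the 7 genes (upper rows, with the cell line where the pattern was seen) and at the nearest region constant in both cell lines for the 4 genes that have such a region (lower rows). Grey marks a library without a call, and only PIN4 keeps the same calls in both cell lines.

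NUFIP2 encodes an RNA-binding protein that partners with FMRP and enters stress granules. Its gene body is chr17:29255839-29294148. In 786-O the SETD2KO-only region chr17:29293957-29294399 spans the gene start, from 251 bases before it to 191 bases after it. Its peaks had percentiles of 98.9 and 99.4 in SETD2KO-1 replicates 1 and 2 and of 99.3 and 98.2 in SETD2KO-2 replicates 1 and 2. Neither WT nor SETD2KO-1R called it. The 4 summits fell within 42 bp. In RPTEC the same place was called in WT replicate 1 (99.5), WT replicate 2 (99.7) and SETD2KO-1 replicate 2 (98.4), and in no SETD2KO-2 or SETD2KO-1R library. The peak at the NUFIP2 start thus went with SETD2KO in 786-O, whereas in RPTEC both WT libraries had it and 3 of 4 SETD2KO libraries did not.

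The broad region 6.2 to 8.0 kb into the gene (chr17:29286143-29287933 in 786-O) was constant in both cell lines, at percentiles of 85.5 to 96.3 in 786-O and 77.8 to 93.8 in RPTEC. A region near 29 kb (chr17:29264015-29264841) was constant in 786-O and called in 6 libraries of RPTEC, 4 of them SETD2KO. NUFIP2 held 11 regions in 786-O and 12 in RPTEC, of which 4 and 5 were called in a single library, and all 5 of RPTEC were calls of WT replicate 2.

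RUFY1 encodes an early endosomal protein that binds phosphoinositides through a FYVE domain and takes part in recycling with Rab GTPases. Its gene body is chr5:179550554-179610012. The SETD2KO-only region of 786-O, chr5:179598424-179598720, lies 47.9 kb into the gene and also overlaps the lncRNA genes RUFY1-AS1 and LOC128966623. Without strand its peaks cannot be assigned to RUFY1 alone. Percentiles were 98.9 and 99.0 in the SETD2KO-1 libraries, and 91.8 and 99.6 in SETD2KO-2 replicates 1 and 2. All 4 peaks were 267 to 287 bp long, and their summits lay within 15 bp. In RPTEC the place was called in SETD2KO-1 replicate 2 (98.2), SETD2KO-2 replicate 1 (98.4) and SETD2KO-1R replicate 1 (95.9), so that calls fell on both sides of SETD2 status.

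RUFY1 had many regions, 19 in 786-O and 16 in RPTEC, and none was constant in either cell line. The region at its start (chr5:179550403-179551256) was called in 7 of 8 libraries in 786-O and, over a narrower span, in 7 of 8 in RPTEC, with a SETD2KO library missing each time. A neighbour 1.83 kb before the SETD2KO-only region (chr5:179596292-179596588) was called in 786-O by 3 libraries with SETD2 and 3 without it. A neighbour on the other side (chr5:179598928-179599335) was called in 2 and 2. The SETD2KO-only calls therefore stood between regions that were called on both sides.

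CTSL encodes cathepsin L, a lysosomal cysteine protease. Its gene body, chr9:87726119-87731469, is the shortest of the 7. The SETD2KO-only region of 786-O, chr9:87725939-87726257, runs from 180 bases before the gene start to 138 bases after it. Percentiles were 96.3 and 96.1 in the SETD2KO-1 libraries and 97.1 and 95.2 in the SETD2KO-2 libraries. A second region 4.6 kb downstream (chr9:87730737-87731017) was called in SETD2KO-1 replicate 2 (98.5) and SETD2KO-2 replicate 2 (97.7) alone. No SETD2-expressing library of 786-O had any CTSL peak. In RPTEC the only CTSL peak of the 8 libraries lay at that downstream place, in SETD2KO-1R replicate 1 (93.5), and no library called the gene start. CTSL had no constant region, so there is no neighbouring peak by which to judge whether its transcript was captured alike in all libraries.

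BCLAF1 encodes an arginine- and serine-rich nuclear protein that, with THRAP3, takes part in mRNA processing. Its gene body is chr6:136256627-136289846. The SETD2KO-only region of RPTEC, chr6:136261441-136261742, lies 28.1 kb from the gene start. Percentiles were 99.6 and 98.9 in the SETD2KO-1 libraries and 98.1 and 99.2 in the SETD2KO-2 libraries. In 786-O the same place (chr6:136261439-136261752) was constant, at percentiles of 97.7 to 99.0. All 12 peaks at this place, over both cell lines, were 259 to 300 bp long, and the summits lay within 16 bp in 786-O and 24 bp in RPTEC. The place was thus among the highest-scoring peaks of every library that called it, and the 4 libraries without a call were the WT and SETD2KO-1R libraries of RPTEC. A neighbour 14.4 kb away (chr6:136276094-136276775) was constant in both cell lines, at percentiles of 78.9 to 98.8 in RPTEC and 80.5 to 97.3 in 786-O.

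NIPBL encodes the protein that, with MAU2, loads cohesin onto chromatin. Its gene body, chr5:36876769-37066413, is the longest of the 7. The SETD2KO-only region of RPTEC, chr5:36995363-36995705, lies 118.6 kb into the gene. Percentiles were 86.0 and 86.6 in the SETD2KO-1 libraries and 89.5 and 94.7 in the SETD2KO-2 libraries. In 786-O the place was called in WT replicate 1 (94.9), both SETD2KO-1 libraries (93.5 and 95.9) and SETD2KO-1R replicate 2 (97.9), that is in 2 SETD2KO and 2 SETD2-expressing libraries, and in neither SETD2KO-2 library. The summits of all 8 peaks fell between positions 36995474 and 36995509.

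NIPBL held 16 regions in each cell line. A region over its start (chr5:36875790-36877009 in 786-O, which also overlaps the divergent transcript NIPBL-DT) and regions near 99 kb and 108 kb were constant in both. A region near the end of the gene (chr5:37064359-37064958) was constant in 786-O and missing in 1 SETD2KO library of RPTEC. The constant region nearest to the SETD2KO-only place was 9.3 kb away and had percentiles of 93.8 to 99.5 in 786-O and 43.6 to 98.0 in RPTEC.

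TNFRSF11B encodes osteoprotegerin, a secreted decoy receptor that binds the ligand RANKL (TNFSF11). Its gene body is chr8:118923557-118951885. In RPTEC the SETD2KO-only region chr8:118924321-118925007 had percentiles of 96.7 and 85.8 in the SETD2KO-1 libraries and of 92.9 and 98.3 in the SETD2KO-2 libraries. It was not SETD2KO-only when at least 50% of a region had to be covered. A second region at the other end of the gene (chr8:118951717-118952273, which also overlaps COLEC10) was called in SETD2KO-1 replicate 1 (41.0), by a peak outside the gene body, and SETD2KO-2 replicate 1 (62.8). The 5 peaks within the gene body in RPTEC were from SETD2KO libraries. In 786-O no library had a peak in this gene, so no comparison could be made there.

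PIN4 encodes a parvulin-type peptidyl-prolyl isomerase linked to ribosome biogenesis. Its gene body is chrX:72181676-72263964, and ERCC6L, which encodes a DNA helicase of mitosis, lies within it. The SETD2KO-only region is chrX:72262801-72263741 in 786-O and chrX:72262705-72263626 in RPTEC, more than 81 kb into the gene and close to its end. No other annotated gene overlaps it, but without strand it was assigned to PIN4 by position alone. Percentiles in 786-O were 71.4 and 58.4 in the SETD2KO-1 libraries and 58.0 and 27.6 in the SETD2KO-2 libraries. In RPTEC they were 87.5 and 81.5, then 63.8 and 80.9. It was called in 8 of 8 SETD2KO and 0 of 8 SETD2-expressing libraries. Only 9 of the SETD2KO-only regions, 375 in 786-O and 180 in RPTEC, overlapped between the cell lines. Of the regions called in the SETD2-expressing libraries alone, 116 and 145, 1 did. Any region of the other cell line was overlapped by 219 of the 375 and by 116 of the 180. The only other protein-coding gene among the 9 was CXXC4. PIN4 peaks there were 272 to 830 bp long in 786-O and 284 to 922 bp in RPTEC. In 786-O the region was no longer SETD2KO-only with the upper 50% of each list by score, with at least 50% of the region required to be covered, or without peaks under 288 bp, and in RPTEC it was lost under none of these.

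The constant region of PIN4 (chrX:72206747-72208969 in 786-O) lies 53.8 kb away and overlaps ERCC6L, so it cannot be assigned to PIN4. PIN4 held 12 regions in 786-O and 11 in RPTEC. Within 2.9 kb of its start, a region was called in 4 SETD2KO libraries and 1 SETD2-expressing library of 786-O, and the overlapping region of RPTEC in 3 and 1. Of the others there, both of 786-O were called in 1 SETD2KO library and 2 SETD2-expressing libraries, and the one of RPTEC in 1 SETD2-expressing library alone.

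**Figure D2:**
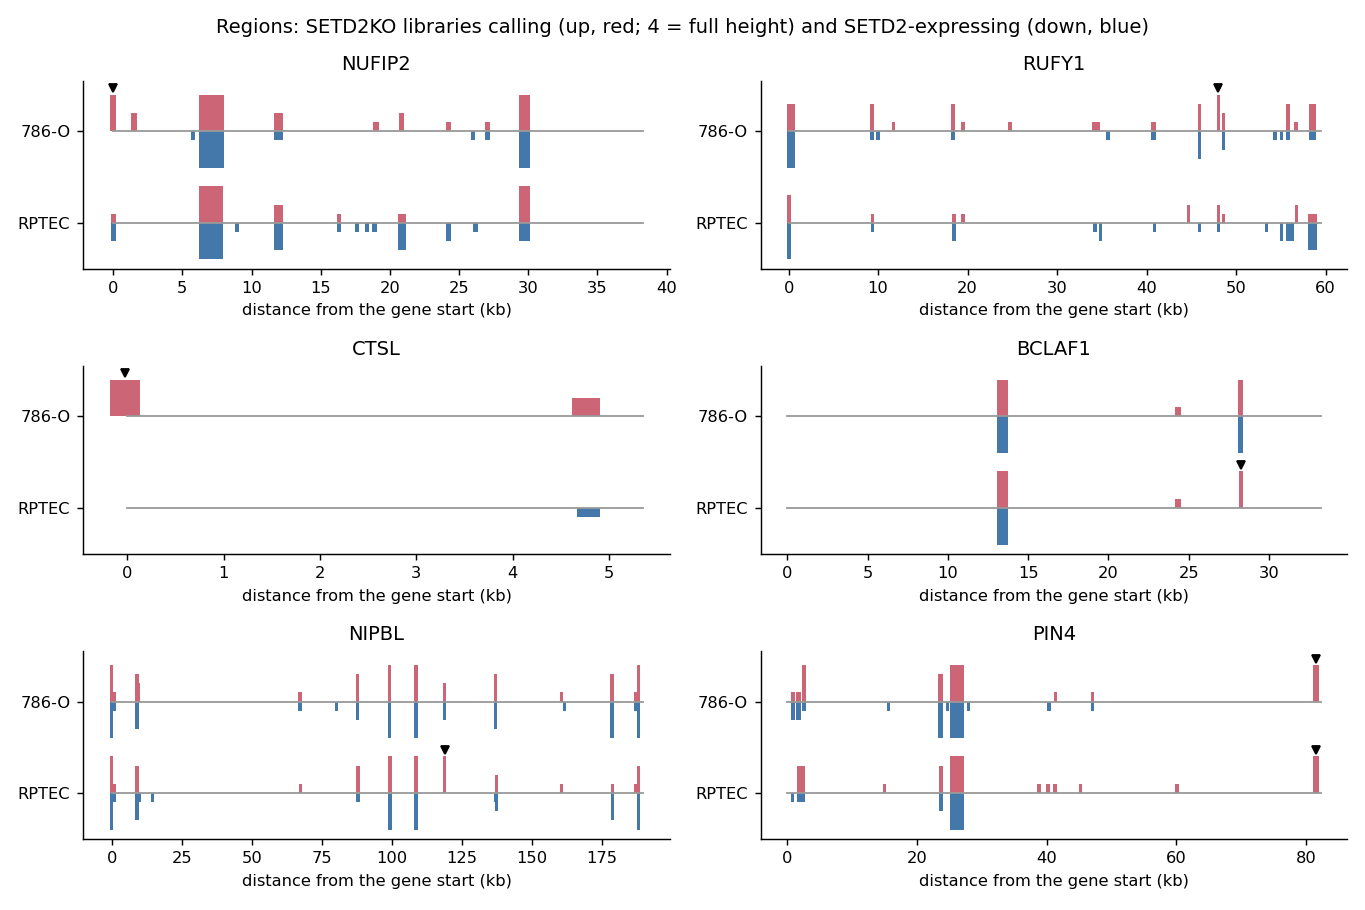
Regions along 6 of the genes by distance from the gene start (kb); red bars rise with the number of SETD2KO libraries that call a region and blue bars fall with the number of SETD2-expressing ones (full height is 4), regions too narrow to see are widened, and triangles mark SETD2KO-only regions. SETD2KO-only regions stand at the start of NUFIP2 and CTSL and at the end of PIN4, and BCLAF1 has the same place constant in 786-O.

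The length of the peaks in these calls was also examined. Each list has a shortest peak, from 233 to 288 bp, and 18 of the 34 peaks in the SETD2KO-only regions were at least 288 bp long. In 786-O the shortest peak was 288 bp in both SETD2KO-1R lists, 264 and 236 bp in WT and 261 to 280 bp in SETD2KO. In RPTEC these were 233 and 252 bp, 270 and 265 bp, and 233 to 276 bp, in the same order. The SETD2KO-1R lists of 786-O thus held no peak as short as the 4 of RUFY1 (267 to 287 bp). What part this had in their missing calls was not tested. Excluding peaks under 288 bp from every list left 1 of the 8 pairs of gene and cell line with a SETD2KO-only region, PIN4 in RPTEC. Of all SETD2KO-only regions, 66.7% of those of 786-O and 70.0% of those of RPTEC overlapped one under that limit. For the other 6 genes and for PIN4 in 786-O, the call of at least 1 SETD2KO library was a peak shorter than this limit. By gene, peaks of 288 bp or more came from 3 of the 4 SETD2KO libraries for NUFIP2, TNFRSF11B and PIN4 in 786-O, 2 for BCLAF1, 1 for CTSL and NIPBL, and 0 for RUFY1.

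**Figure D3:**
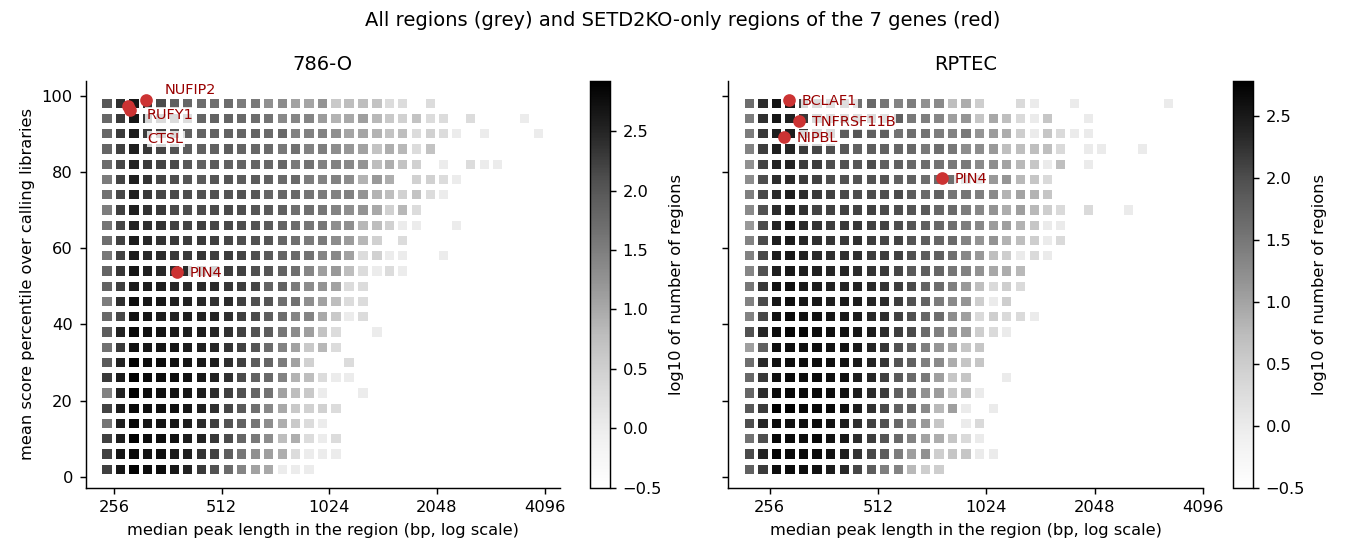
Median peak length in a region (bp, log scale) against its mean score percentile, with all regions in grey by number and the SETD2KO-only regions of the 7 genes in red. The regions of the other 6 genes have median peaks of 280.5 to 315.5 bp and mean percentiles of 89.2 to 99.0, and PIN4 has a mean percentile of 53.8 in 786-O and 78.4 in RPTEC.

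High-scoring regions made of short peaks were seldom called in all 8 libraries. Among regions with a mean percentile of 90 or above, those with a median peak under 300 bp were called in all 8 libraries in 34 of 1716 cases in 786-O (1.98%) and 49 of 2018 in RPTEC (2.43%). Those with longer peaks were called in all 8 in 970 of 2541 cases (38.2%) and 584 of 1814 cases (32.2%). Of the short-peak regions, 61.0% in 786-O and 62.5% in RPTEC were called in 2 to 7 libraries, and 37.0% and 35.1% in a single library. RUFY1, CTSL, BCLAF1 and NIPBL belong to the short class by their median peak of 280.5 to 289.5 bp, NIPBL with a mean percentile slightly under 90, and NUFIP2 (315.5 bp) and TNFRSF11B (309 bp) lie just above its limit. The part of peak length in the 4 to 0 split of these genes was not tested.

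**Figure D4:**
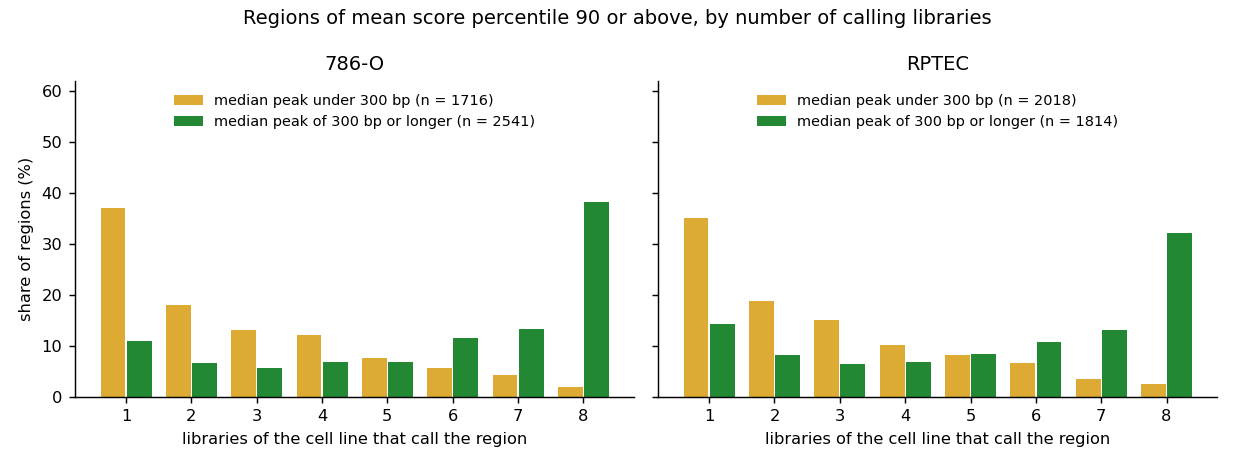
Share of regions (%) with a mean score percentile of 90 or above by the number of libraries of the cell line that call them, for regions with a median peak under 300 bp and of 300 bp or longer. Short-peak regions are called in all 8 libraries in 1.98% (786-O) and 2.43% (RPTEC) of cases, and longer ones in 38.2% and 32.2%.

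The number of peaks per library in the gene body was compared between SETD2KO and SETD2-expressing libraries in the cell line that had not chosen the gene, by an exact two-sided permutation test over the 8 libraries. Over all protein-coding genes with a peak, an unadjusted p under 0.05 was reached by 189 of 12430 genes in the direction of more peaks in SETD2KO (1.52%) and by 112 with fewer (0.901%) in 786-O. In RPTEC 123 of 12185 genes had more (1.01%) and 172 had fewer (1.41%). With 70 arrangements of the libraries the smallest p is 0.0286, and no gene of either cell line passed 0.05 after Benjamini-Hochberg adjustment. None of the 5 genes with a peak there reached an unadjusted p under 0.05 by this exact permutation test. For CTSL and BCLAF1 only a single library differed from the rest. Every arrangement then gives the same absolute difference, so their p could not be under 0.05 and nothing is read from it.

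NUFIP2 had 3.75 ± 0.957 peaks per SETD2KO library of RPTEC and 6 ± 3.46 per SETD2-expressing library (SD, n = 4 each; exact permutation p = 0.371, adjusted p = 1). The library values were 3, 4, 3 and 5 against 5 and 11 in WT and 3 and 5 in SETD2KO-1R, so the groups overlapped. Without WT replicate 2 the difference for NUFIP2 moved from -2.25 to -0.583. RUFY1 had 3.50 ± 1.73 and 5.25 ± 2.22 (SD, n = 4 each; exact permutation p = 0.343, adjusted p = 1). Its SETD2KO libraries had 1, 5, 4 and 4 peaks, WT had 6 and 2 and SETD2KO-1R 7 and 6. The difference for RUFY1, -1.75, was -0.25 with the upper 50% of each list by score or with equal peak numbers, -0.917 without SETD2KO-1 replicate 1 and -2.83 without WT replicate 2. CTSL had its 1 peak in SETD2KO-1R replicate 1 (exact permutation p = 1, adjusted p = 1). All of these means were lower in SETD2KO, opposite to the direction that chose the genes in 786-O, and the groups overlapped for each gene. Over all genes tested in RPTEC the median difference was -0.25, the same as for CTSL and for RUFY1 with equal peak numbers. Nothing is therefore read from this direction.

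BCLAF1 had 2 peaks in every 786-O library but SETD2KO-1 replicate 2, which had 3 (exact permutation p = 1, adjusted p = 1). NIPBL had 9 ± 1.41 peaks per SETD2KO library of 786-O and 8.75 ± 2.75 per SETD2-expressing library (SD, n = 4 each; exact permutation p = 1, adjusted p = 1). Its library values were 10, 10, 9 and 7 against 10 and 12 in WT and 6 and 7 in SETD2KO-1R, so the WT and SETD2KO-1R libraries lay on opposite ends. The difference for NIPBL, 0.25, turned to the other direction under 5 of 14 alternatives and ranged from -0.667 to 1.33 over them. TNFRSF11B had no peak in 786-O and was not tested. PIN4 was chosen in both cell lines, which left no cell line to test it in.

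In the cell lines that chose the genes the same numbers are a description. In 786-O, NUFIP2 had 4, 4, 5 and 8 peaks in the SETD2KO libraries, 2 and 3 in WT and 2 and 6 in SETD2KO-1R. RUFY1 had 7, 8, 9 and 7 in the SETD2KO libraries, 7 and 5 in WT and 3 and 3 in SETD2KO-1R. CTSL had 1, 2, 1 and 2 against 0 in all SETD2-expressing libraries. The groups overlapped for NUFIP2 and RUFY1. Those of CTSL did not, beside 1.52% of all genes with an unadjusted p under 0.05 and more peaks in SETD2KO in 786-O, and nothing is read from it because the rule used these calls.

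In RPTEC, BCLAF1 had 2, 2, 2 and 3 peaks in the SETD2KO libraries and 1 in every SETD2-expressing library. TNFRSF11B had 1, 1, 2 and 1 against 0. NIPBL had 9, 8, 8 and 6 against 6 and 6 in WT and 9 and 7 in SETD2KO-1R. PIN4 had 8, 7, 7 and 4 against 3 and 2 in WT and 2 and 6 in SETD2KO-1R in RPTEC, and 5, 7, 6 and 6 against 4, 6, 5 and 6 in 786-O. The groups overlapped for NIPBL and PIN4. Those of BCLAF1 and TNFRSF11B did not, beside 1.01% of all genes with an unadjusted p under 0.05 and more peaks in SETD2KO in RPTEC, and nothing is read from it because the rule used these regions.

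**Figure D5:**
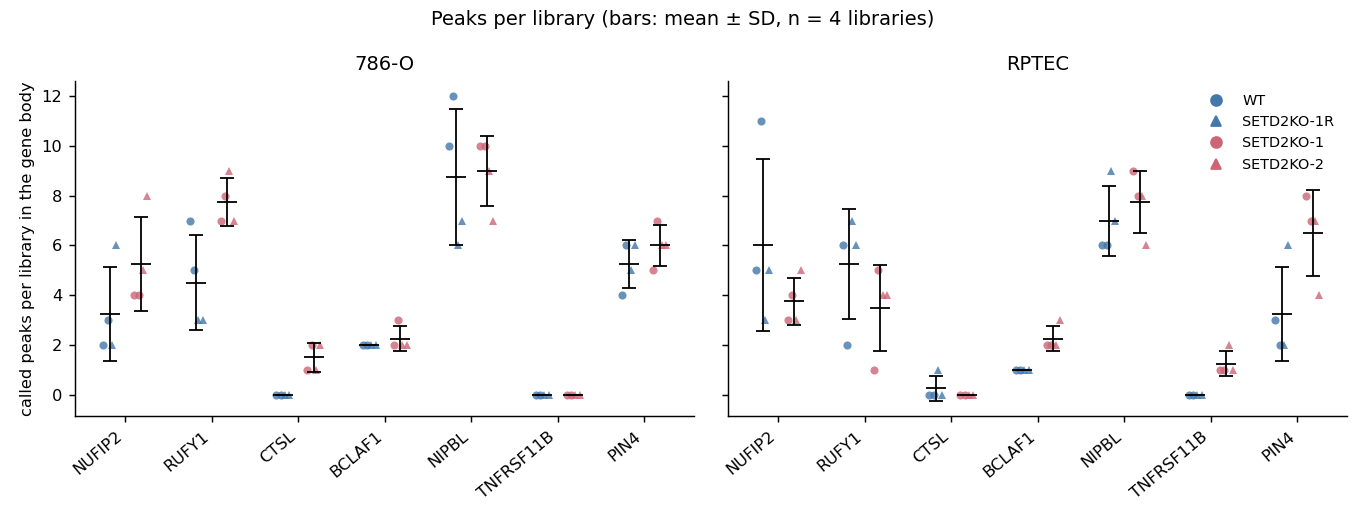
Called peaks per library in the body of each gene in 786-O (left) and RPTEC (right), with SETD2-expressing libraries in blue (circles WT, triangles SETD2KO-1R) and SETD2KO libraries in red (circles SETD2KO-1, triangles SETD2KO-2), and bars for mean ± SD (n = 4 libraries). Outside the cell line that chose a gene the groups overlap, and TNFRSF11B has no peak in 786-O.

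The genes that work with these 7 were examined from lists of family members and partners, 79 genes in all. Peaks were present at 74 of them in 786-O and at 73 in RPTEC. In 786-O 1 of the 74 held a SETD2KO-only region (1.35%, beside 1.48% of all genes with a region), and in RPTEC 0 of 73 did, beside 0.936% of all genes. The median difference in peaks per library, SETD2KO minus SETD2-expressing, was 0.125 in 786-O and -0.250 in RPTEC, beside 0 and -0.250 over all genes tested. By the exact permutation test no partner had an unadjusted p under 0.05 with more peaks in SETD2KO in either cell line, 1 had fewer, in RPTEC (1.37% of 73, beside 1.41% of all genes), and none passed after adjustment. Nothing is read from these counts about the partners.

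The partner with a SETD2KO-only region was FKBP1A, a peptidyl-prolyl isomerase that binds rapamycin and FK506, like PIN4 in its enzyme activity but of another family. Its region in 786-O, chr20:1388874-1389421, had a mean percentile of 13.4, and FKBP1A had 2, 1, 3 and 1 peaks in SETD2KO libraries against 2, 1, 1 and 1 (exact permutation p = 0.714, adjusted p = 1, n = 4 each). The partner with fewer peaks was ESCO2, an acetyltransferase that acts on cohesin. In RPTEC it had 1, 1, 1 and 0 peaks in the SETD2KO libraries and 2 in each SETD2-expressing library (exact permutation p = 0.0286, the smallest possible, adjusted p = 1, n = 4 each). Its p was no longer under 0.05 when the lists were restricted to their upper 50% by score, to equal peak numbers or to peaks of at least 288 bp. A region of ESCO2, chr8:27812341-27812811, was called in the 4 SETD2-expressing libraries alone at a mean percentile of 28.0.

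By list, peaks were found in both cell lines at all 12 stress granule and FMRP partners of NUFIP2, 8 of 9 early endosome genes listed for RUFY1, 11 of 14 cathepsins and inhibitors listed for CTSL, all 14 cohesin genes listed for NIPBL, 9 of 10 osteoprotegerin ligands and related receptors and all 10 peptidyl-prolyl isomerases. Of the 10 arginine- and serine-rich partners of BCLAF1, 10 had peaks in 786-O and 9 in RPTEC. Median differences in peaks per library ranged from -0.250 to 0.250 over the 7 lists in 786-O and from -0.5 to 0 in RPTEC. No list other than those of NIPBL and PIN4 had a member with a SETD2KO-only region, the reverse, or an unadjusted p under 0.05 by the exact permutation test.

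Annotated pseudogenes of the members were checked for peaks, since reads of near-identical copies can be shared. The 6 CTSL pseudogenes in the gene table and BCLAF1P1 had none in any of the 16 libraries. BCLAF1P2 on chromosome 16 had a peak in 13 of 16 libraries, and PIN4P1 on chromosome 15 in 3. Reads of BCLAF1 and PIN4 may be split with these copies.

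The protein-coding genes most like each member in peaks per library over the 16 libraries were NOCT and GTF2I for NUFIP2 (Pearson r = 0.871 and 0.870), SRPRA and ZIC2 for RUFY1 (0.832 and 0.825), CYP4F3 and PILRA for CTSL (0.940 and 0.895), DHRSX and IGSF5 for BCLAF1 (0.778 and 0.765), PRIM2 and DAP for NIPBL (0.903 and 0.874), HCN4 and MXRA5 for TNFRSF11B (0.979 and 0.974), and IQSEC2 and TBX3 for PIN4 (0.872 and 0.796). They are the highest of 11497 genes compared, over libraries that share cell line and list size. For CTSL and TNFRSF11B they rest on few libraries with a peak.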

How the data were processed

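MeRIP-seq peak lists of 16 IP libraries were used (2 cell lines, 4 lines each, 2 replicates per line from the labels). The 16 Input samples are not analysed here on their own. Per the study's methods and the submitters' processing notes, the authors aligned reads with STAR to hg38, counted them with HTSeq 2.0.3, scaled them by E. coli RNA added to each sample, and ran MACS2 2.2.9.1 on IP against Input for each library separately. The deposited score of a peak is a whole number of unstated scale, used here as a rank within its list and nothing more. Position, length and summit were taken from the deposited lists. Depth is not given in them.

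Of 474004 peaks, those on chromosomes 1 to 22, X and Y were used, and gene bodies came from RefSeq (GRCh38.p14), with strand from its promoter table for 6 of 7 members. TNFRSF11B was not in that table. Members, partner lists and tests were chosen with earlier results of these data known. Named genes were the members, genes overlapping their SETD2KO-only regions, their pseudogenes, partners with a SETD2KO-only region, the reverse or an unadjusted p under 0.05, and the 2 genes of most similar peak numbers (a peak in at least 4 libraries). SF3A1, NUPR1, CXXC4, COLEC10, ERCC6L and NIPBL-DT were named after their values were seen. The exact two-sided permutation test was run on every protein-coding gene with a peak, with Benjamini-Hochberg adjustment over all of them. Alternatives were to keep the upper 50% of a list by score, equal peak numbers per library, a minimum length of 288 bp (the longest of the lists' shortest peaks), overlap of 50 bp, summits, merging within 100 bp, 50% coverage of a region, looser library requirements, each library left out, and a replicate block. Steps were tested on simulated data. Python 3.11.15, NumPy 2.4.6, pandas 2.3.3 and Matplotlib 3.10.9 were used.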

Additional observations from a re-analysis of the deposited data

Results flagged for a closer look

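In 36 groups of 4 libraries, 5 values stood apart from the other 3 by more than Dixon's limit, where chance flags about 1 in 20 groups. The RUFY1 region of 786-O had a score percentile of 91.8 in SETD2KO-2 replicate 1, below the other SETD2KO libraries (98.9 to 99.6). The other 4 are single added peaks in groups that were otherwise tied: 1 CTSL peak in RPTEC SETD2KO-1R replicate 1, 3 BCLAF1 peaks in 786-O SETD2KO-1 replicate 2, 3 BCLAF1 peaks in RPTEC SETD2KO-2 replicate 2, and 2 TNFRSF11B peaks in RPTEC SETD2KO-2 replicate 1. Their cause was not tested.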

How the results depend on the processing

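The number of pairs of gene and cell line with a SETD2KO-only region (8) was 7 with the upper 50% by score, which lost PIN4 in 786-O, 6 with 50% coverage, which lost PIN4 in 786-O and TNFRSF11B, and 1 with the minimum peak length, because peaks under 288 bp were removed. It was 8 with equal peak numbers and with peaks merged within 100 bp. The looser library requirements and leaving out each library (8 to 8) only relax the rule and cannot lose a region, so they say nothing about stability. No member had an unadjusted p under 0.05 in the cell line that did not choose it under any alternative. The range was 0 to 0 with each library left out. The count was also 0 with the replicate block, but that block allows no p under 0.0556. CTSL and BCLAF1 could not reach 0.05 either wherever a single library differed from the rest. The difference for NIPBL in 786-O (0.25 peaks per library) reversed to -0.25 with equal peak numbers per library, to -0.0833 without SETD2KO-1 replicate 1 or replicate 2, to -0.667 without SETD2KO-1R replicate 1 and to -0.333 without SETD2KO-1R replicate 2, and it ranged from -0.667 to 1.33 with each library left out, passing the test under none. The count of partner genes with an unadjusted p under 0.05 (1, ESCO2 in RPTEC) was 2 with equal peak numbers per library (PDS5B in both cell lines), 2 with the minimum length (CTSZ and HDAC8 in 786-O) and 1 to 5 with each library left out, always with ESCO2. It was 5 without RPTEC SETD2KO-1 replicate 2 or SETD2KO-1R replicate 1, 3 without 786-O SETD2KO-1 replicate 1 or RPTEC WT replicate 1, and 2 without 786-O WT replicate 2, 786-O SETD2KO-2 replicate 1 or RPTEC SETD2KO-1R replicate 2. It was 0 with the replicate block, whose 36 arrangements allow no p under 0.0556. ESCO2 was thus lost under the replicate block by its construction, and with equal peak numbers, the minimum length and the upper 50% of each list (count 1, WAPL) for a cause that was not tested. Deviations of same-numbered libraries correlated at -0.353 to 0.375 over 12 pairs of lines, with 2 above 0.1. Those 2 were 786-O SETD2KO-2 with SETD2KO-1R (0.375) and RPTEC WT with SETD2KO-2 (0.325). With values of both signs, this does not settle whether the replicate numbers pair the libraries. Without read counts, a missing call cannot be told from low coverage.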
